A study of Mus musculus with 18 samples.

Results

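The 7 genes described here are Lrig1, Lgr6, Plet1, Krt79, Gata6, Prdm1 and Defb6, which are known from the upper part of the mouse hair follicle and the duct of its sebaceous gland. They were chosen by symbol, and all 7 had a row in the deposited table of 21011 genes. All 7 also passed the filter on low counts, which kept 16517 genes. RNA of 18 mice was sequenced, each mouse giving 1 library, from epidermal cells of back skin that the labels describe as telogen, the resting phase of the follicle. The labels give the tissue as dorsal skin, and RNA of mixed epidermal cells cannot place a transcript in the follicle. Per the labels, Cre was induced by tamoxifen at an age of 8 weeks, and skin was collected 10 weeks after that. KR mice (n = 4) carry K14-CreERT, whose promoter is active in basal keratinocytes, and a deletion of Rbpj. LR mice (n = 3) carry Lrig1-CreERT2, driven from Lrig1 in the upper follicle, and a deletion of Rbpj. KN1 mice (n = 4) carry a driver that the labels write K14-CreERT1 and a deletion of Notch1. Controls come from the batch or litter of their mutant, per the labels, and number 2 (KR), 3 (LR) and 2 (KN1), and no mouse serves in more than 1 comparison. The sources used here give neither the alleles that the controls carry nor whether the Lrig1-CreERT2 construct interrupts a copy of Lrig1.

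The upper follicle holds the opening of the hair canal (the infundibulum), the junction below it and the duct through which the sebaceous gland empties. Lrig1, Lgr6 and Plet1 are known as surface proteins of its stem and progenitor cells, Krt79 is a keratin of the canal and duct, Gata6 is a zinc-finger transcription factor of the duct lineage, Prdm1 (Blimp1) is a transcriptional repressor found in sebaceous cells and in terminally differentiating keratinocytes, and Defb6 is a secreted antimicrobial peptide of the beta-defensin family. Notch receptors such as Notch1 are cut upon ligand binding, and the freed inner part joins Rbpj, the DNA-binding protein of the pathway, at target genes. Rbpj binds DNA with the core TGGGAA, and GATA factors such as Gata6 bind AGATAA and related letters.

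RefSeq promoter windows (GRCm38.p6, 250 bases before to 50 after the start) were found for 6 of the 7 genes. The core TGGGAA, on either strand, was in 3 of the 6 windows (Lgr6, Krt79 and Prdm1), beside 25.6% of all 32817 windows. The longer form GTGGGAA, which contains the core, was in 0 of the 6, beside 6.39% of all windows. The GATA letters AGATAA were in 2 of the 6 (Krt79 and Defb6), beside 11.2% of all windows. The windows of Krt79, which holds both motifs, of Prdm1, with the Rbpj core, and of Defb6, with the GATA letters, are shown because Rbpj was deleted in KR and LR mice and Gata6 had the largest difference among the 7 genes. Krt79's window is chr15:101940275-101940574 (minus strand), Prdm1's is chr10:44458699-44458998 (minus strand; this start lies inside the GENCODE span) and Defb6's is chr8:19225228-19225527 (plus strand). Capitals mark TGGGAA, its reverse complement TTCCCA, and AGATAA.
Krt79: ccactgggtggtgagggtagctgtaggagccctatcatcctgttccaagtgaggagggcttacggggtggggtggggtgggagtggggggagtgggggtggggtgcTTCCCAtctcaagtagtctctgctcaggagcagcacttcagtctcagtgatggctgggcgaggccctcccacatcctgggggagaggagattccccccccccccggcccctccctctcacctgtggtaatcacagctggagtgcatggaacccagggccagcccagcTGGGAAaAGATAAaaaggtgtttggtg
Prdm1: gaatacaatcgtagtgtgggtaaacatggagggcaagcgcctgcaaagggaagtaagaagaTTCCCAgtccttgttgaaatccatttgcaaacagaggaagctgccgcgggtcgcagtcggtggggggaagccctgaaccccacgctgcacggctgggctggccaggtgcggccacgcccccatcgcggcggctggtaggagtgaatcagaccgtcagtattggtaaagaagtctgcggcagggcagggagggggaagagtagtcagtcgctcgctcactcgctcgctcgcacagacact
Defb6: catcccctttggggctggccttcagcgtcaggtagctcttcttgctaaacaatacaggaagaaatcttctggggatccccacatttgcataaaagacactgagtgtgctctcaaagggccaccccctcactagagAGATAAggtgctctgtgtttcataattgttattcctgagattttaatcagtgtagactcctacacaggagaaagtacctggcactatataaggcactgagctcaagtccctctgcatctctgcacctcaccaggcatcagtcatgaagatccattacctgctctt
Counted from 1 at the left end, Krt79 has the core at position 107 on the minus strand and at position 274 on the plus strand, and AGATAA at position 281. Prdm1 has the core at position 62 on the minus strand, Defb6 has AGATAA at position 136, and Lgr6, not shown, has the core at position 50. These are matches of letters and not measured binding.

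In mm10 (GRCm38), with positions from GENCODE M21, the genes lie on different chromosomes and all are protein coding. Lrig1 lies at chr6:94604529-94700158 on the minus strand and Lgr6 at chr1:134983301-135105276 on the minus strand. Plet1 lies at chr9:50494525-50505482 on the plus strand and Krt79 at chr15:101929332-101940324 on the minus strand. Gata6 lies at chr18:11052064-11085635 on the plus strand, Prdm1 at chr10:44437177-44528501 on the minus strand and Defb6 at chr8:19225478-19228209 on the plus strand. Exons of 3 of the genes overlap a gene on the other strand. The shared stretch is 261 bases for Plet1 and Plet1os (13.4% of Plet1's exon bases), 144 bases for Lrig1 and Slc25a26 (2.58%) and 93 bases for Gata6 and 1010001N08Rik (1.43%), and reads there cannot be told apart unless strand was used in counting, which no source used here states.

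Libraries held 8076316 to 21216169 counts, and the 2 deepest (KR control 4 and KN1 control 1) each merge 2 sequencing occasions of 1 mouse. A second name, whose meaning the labels do not state, is attached to 3 controls (KR 6, LR 5 and KN1 7), which are called second-named below, and to 1 of the 2 sequencing occasions of each merged library. It thus touches 5 of the 7 controls, among them every KR and KN1 control, and none of the mutants, so in KR and KN1 it cannot be told apart from control status except by its share of a library. A list of 19 hair matrix and shaft genes, which growing follicles express, summed to 673 to 1128 CPM in 6 mice (KR control 6, LR control 2, KR 4, KR 5, LR 2 and KN1 2), to 215 in KR 3 and 361 in KN1 4, and to 37.9 to 89.6 in the other mice. The high sums go against the telogen label in those mice. The labelled epidermis was reflected in the basal keratinocyte list (15 genes, among them Krt14 and Krt5), which summed to between 25475 and 37853 CPM in the libraries. CPM are counts brought to a common library size with TMM factors. Of the deleted genes, Notch1 was at 81.9 to 156 CPM in KN1 mice and at 251 and 172 in their controls (log2 fold change -0.91 ± 0.19 SE, edgeR adjusted p = 0.0251). Rbpj was at 40.9 to 45.9 CPM in KR mice against 58.1 and 60.8 in controls, and at 29.9 to 37.9 in LR mice against 42.7 to 73.1. Its log2 fold changes, -0.47 ± 0.17 in KR and -0.66 ± 0.17 in LR, did not pass (edgeR adjusted p = 0.135 and 0.0659), and in KN1, where it was not the target, it was -0.34 ± 0.18 (0.31). The removed exons are not named in the sources used here, so counts over the whole gene check these labels only in part.

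Gata6 was higher in the mutants than in their own controls in all 3 cohorts, and in LR the difference passed the test, at 2.66-fold. Prdm1 was lower in all 3 cohorts and passed only in the mean over the 3. Krt79 was lower in LR mice and higher in KN1 mice, with neither difference past the threshold. Lrig1, Lgr6, Plet1 and Defb6 passed in no mutant. Adjusted p-values come from the quasi-likelihood test of edgeR, with Benjamini-Hochberg adjustment over the 16517 genes, and a gene was called at an adjusted p under 0.05. Fold changes are log2 of mutant over its own controls. In LR, 1 of the 7 genes was called, against 1.12% of all tested genes. In KR, edgeR called 0 of 7 with 2 at an unadjusted p under 0.05, and DESeq2 also called 0; edgeR called 1.6% of all genes there. In KN1, edgeR called 0 of 7 with 1 at an unadjusted p under 0.05, and DESeq2 called 0, beside 1.97% of all genes by edgeR. On the mean of the 3 comparisons, 2 of 7 were called, against 21.7% of all genes. The median log2 fold change of the 7 genes was -0.06 in KR, -0.22 in LR and 0.27 in KN1, beside 0.04, -0.00 and 0.02 over all tested genes.

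**Figure D1:**
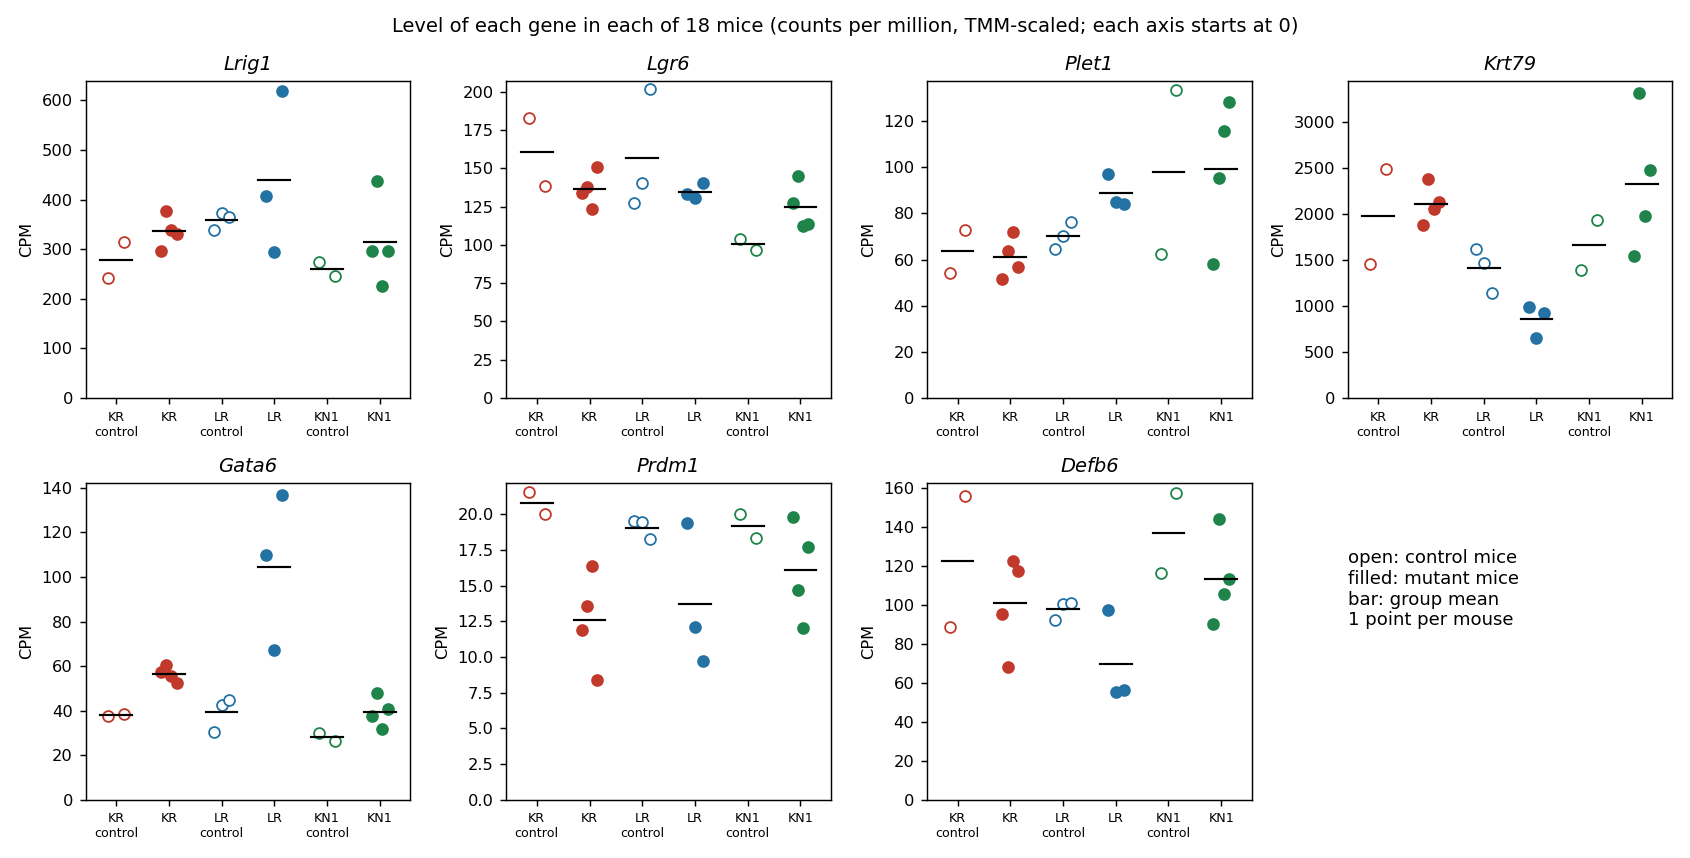
Level of each of the 7 genes in each mouse, in TMM-scaled CPM on axes that start at 0; open points are control mice, filled points mutant mice and bars group means. The 3 LR mice lie above all other mice for Gata6, at 67.3 to 137 CPM, and the 3 LR mice lie below all other mice for Krt79, at 653 to 991 CPM.

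Gata6, the duct transcription factor, was at 110, 67.3 and 137 CPM in LR mice 1, 2 and 3 and at 30.6, 42.7 and 44.6 CPM in LR controls 2, 3 and 5. Every LR mouse was above every control, although the lowest and highest LR mice themselves differed by more than all the controls did. The group means were 105 ± 35.0 (SD, n = 3) and 39.3 ± 7.59 (SD, n = 3), and the log2 fold change was 1.41 ± 0.21 (SE; 95% interval 0.97 to 1.85; edgeR adjusted p = 0.00159). By p-value Gata6 stood 25th among the 16517 genes of the LR comparison. With only the 6 mice of this cohort in the fit the log2 fold change was the same, 1.41, and the call was lost (edgeR adjusted p = 0.0737). In KR mice 1, 3, 4 and 5 Gata6 was at 57.2, 60.4, 55.7 and 52.6 CPM, against 37.6 in KR control 4 and 38.5 in KR control 6. These groups were each tight and did not overlap. The KR difference of 0.57 ± 0.22 (n = 4 and 2) did not pass (edgeR adjusted p = 0.148, unadjusted 0.0197). It passed with the KR cohort fitted alone (0.58, edgeR adjusted p = 0.0356) and with all 7 controls pooled (0.66, 0.0345). Pooling adds controls of other batches, so batch and genotype cannot be told apart in the pooled value. In KN1 mice 1 to 4 Gata6 was at 37.4, 47.8, 31.7 and 40.9 CPM, against 30.0 and 26.4 in KN1 controls 1 and 7. The lowest KN1 mouse lay just above the higher control, and the difference of 0.48 ± 0.22 did not pass (edgeR adjusted p = 0.259, unadjusted 0.0452).

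Averaged over the 3 comparisons, Gata6 rose by 0.82 ± 0.13 (edgeR adjusted p = 0.00068), with every mutant mouse above every control of its own batch in KR, LR and KN1. Groups did not overlap in 38.4% (KR), 19.6% (LR) and 28.1% (KN1) of all genes, and the share separated in all 3 cohorts was not counted. Without the LR cohort the mean was 0.53 and was still called (edgeR adjusted p = 0.0373). With a covariate for the share of each library that is second-named it was 0.92 and the call was lost (0.0683). The Gata6 difference in LR exceeded that in KR by 0.84 ± 0.30 and that in KN1 by 0.93 ± 0.30, and neither excess passed (edgeR adjusted p = 0.98 and 0.482). Lists of other cell types in LR were read beside Gata6. Fibroblast genes (10) summed to 170 to 234 CPM in LR mice and 163 to 212 in controls, and the 8 endothelial genes in the table to 3.88 to 7.11 and 4.49 to 9.04 CPM, so both overlapped between the groups. T cell genes (12) summed to 80.8 to 156 CPM in LR mice and 157 to 253 in controls, and LR 3, the mouse with the most Gata6, had the lowest T cell sum and the lowest sum of suprabasal keratinocyte genes (23782 CPM, against 42180 to 65581 in controls). Of the T cell genes 12 of 12 were negative in LR (median -0.77), with 0 called by edgeR (8 at an unadjusted p under 0.05) and 1, Tcrg-C1, by DESeq2. Cell cycle genes were positive in LR in 12 of 12 (median 0.76) and summed to 331 to 496 CPM against 203 to 281, without overlap, and 0 were called by edgeR (4 unadjusted) or DESeq2. Langerhans cell genes were positive in 10 of 10 (median 0.48), with overlapping sums of 1144 to 1783 and 778 to 1209 CPM and 0 called by edgeR (5 unadjusted; DESeq2 called Mfge8). The basal keratinocyte list also summed to more in every LR mouse (30770 to 32290 CPM) than in LR controls (25475 to 28625). Krt5 and Krt14 made up most of that sum, with group means of 14803 and 6991 CPM against 11695 and 5028. Of the 15 genes 9 were positive and 6 negative in LR, with a median of 0.17. By edgeR 1 rose (4 unadjusted), beside 1.12% of all genes called, and DESeq2 called Ifitm3, Krt14 and Krt5. The part of these shifts in the Gata6 difference was not tested. With the hair sum as a covariate the Gata6 difference was 1.42 in LR (edgeR adjusted p = 0.00166) and 0.87 in the mean (0.000755). In RNA of mixed cells, more cells of a type and more RNA per cell cannot be told apart.

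Prdm1, the repressor, had the lowest level per length of the 7 genes and the narrowest spread among controls. Its CPM in the 7 controls ran from 18.2 to 21.5 (mean 19.6 ± 1.12 SD). In KR mice 1, 3, 4 and 5 it was at 11.9, 13.6, 16.4 and 8.39 CPM, against 21.5 and 20.0 in KR controls 4 and 6. All 4 KR mice lay below both controls, and the log2 fold change was -0.73 ± 0.26 (edgeR adjusted p = 0.119, unadjusted 0.0109). In LR mice 1, 2 and 3 it was at 19.4, 12.1 and 9.70 CPM, against 19.5, 19.4 and 18.2 in controls. LR 1 lay within the control range and the other LR mice below it, giving -0.47 ± 0.25 (edgeR adjusted p = 0.375), a value that ran from -0.81 without LR 1 to -0.28 without LR 3. In KN1 mice it was at 19.8, 14.7, 12.0 and 17.7 CPM, against 20.0 and 18.3, with 1 mouse inside the control range and a difference of -0.26 ± 0.26 (edgeR adjusted p = 0.633). On the mean of the 3 comparisons Prdm1 fell by 0.49 ± 0.15 on the log2 scale (edgeR adjusted p = 0.0261). DESeq2 also called this mean. The call was lost without KN1 control 1 (edgeR adjusted p = 0.0539), KR control 4 (0.0628) or LR 3 (0.0546), without the LR cohort (0.08), without the second-named controls (0.0941) and with the second-named covariate (0.267), while the value stayed between -0.60 and -0.42 in all 26 alternatives. Suprabasal keratinocytes also express Prdm1. On the mean of the 3 comparisons 16 of 18 suprabasal genes were negative and 7 fell, beside 21.7% of all genes called, and their median of -0.52 was about the size of the Prdm1 difference. In LR 18 of 18 were negative (median -0.47; 0 called by edgeR, 5 at an unadjusted p under 0.05; DESeq2 called Dsg1a and Skint5), in KR 17 of 18 (median -0.78) and in KN1 13 of 18 (median -0.31). The list summed to less in every KR mouse (26095 to 52336 CPM) than in KR controls (57652 and 58580), and the sums overlapped in LR (23782 to 55367 against 42180 to 65581) and in KN1 (62021 to 79576 against 78247 and 80664). That list's part in the Prdm1 values was not tested.

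**Figure D2:**
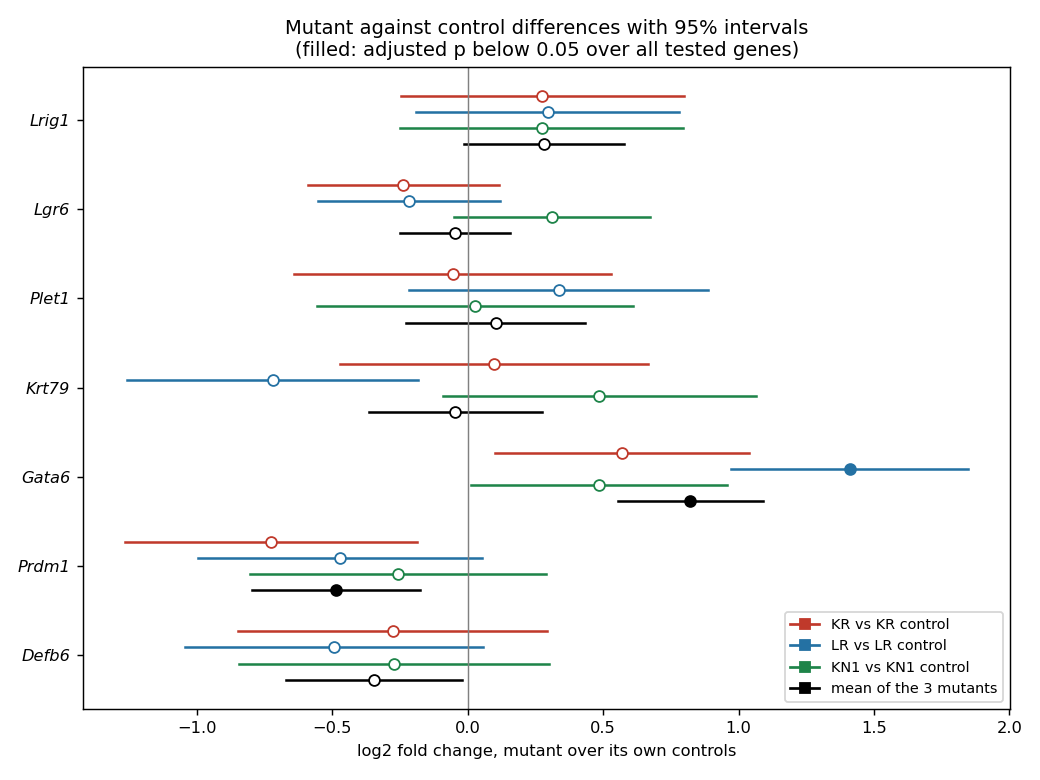
Log2 fold change of each gene in each mutant over its own controls, and the mean of the 3, with 95% intervals from the edgeR fit; filled points have an adjusted p below 0.05. Filled points are Gata6 in LR (1.41) and in the mean (0.82) and Prdm1 in the mean (-0.49).

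Krt79, the keratin of the hair canal and duct, was at 991, 653 and 927 CPM in LR mice 1, 2 and 3, and at 1623, 1470 and 1141 CPM in LR controls 2, 3 and 5. Every LR mouse was below every LR control, and below every mouse of the other batches. The log2 fold change was -0.72 ± 0.26 (95% interval -1.26 to -0.18) and did not pass (edgeR adjusted p = 0.176, unadjusted 0.0114). It passed with all 7 controls pooled (-0.94, edgeR adjusted p = 0.0295). Pooling adds controls of other batches, whose mean Krt79 was 1978 (KR) and 1664 CPM (KN1) against 1412 in LR controls. Batch and genotype cannot be told apart in the pooled value. KR mice 1, 3, 4 and 5 were at 1881, 2385, 2060 and 2134 CPM, between their controls at 1460 and 2497, with a difference of 0.10 ± 0.27 (edgeR adjusted p = 0.86). KN1 mice 1 to 4 were at 1540, 3316, 1983 and 2476 CPM, against 1388 and 1939. KN1 2 held the highest Krt79 of all 18 mice, and the groups overlapped (0.49 ± 0.27, edgeR adjusted p = 0.359). KN1 2 also had 1122 CPM of hair matrix and shaft genes, against 64.6 and 78.1 in the KN1 controls. In KN1 17 of the 19 hair genes were positive, with a median of 5.17. By edgeR 0 were called, and the 1 hair gene at an unadjusted p under 0.05 was lower in KN1 mice. DESeq2 called Krt25, Krt33b, Krt71 and Krt73 as higher. LR 2 had a hair sum like that of KN1 2, 1125 CPM, with the lowest Krt79 of all 18 mice. With the hair sum as a covariate the KN1 difference in Krt79 was 0.34 (edgeR adjusted p = 0.554). The LR and KN1 differences were 1.21 ± 0.38 apart on the log2 scale, lower in LR, which did not pass (edgeR adjusted p = 0.439, unadjusted 0.00499). Sebocyte genes were read beside Krt79. In LR 18 of the 21 tested had a negative log2 fold change, with a median of -0.56, and the 22 in the table summed to 2991 to 3957 CPM in LR mice and 4481 to 4916 in controls. None of the 21 was called in LR by edgeR (4 at an unadjusted p under 0.05) or by DESeq2. In KR, 18 of the 21 were positive with a median of 0.64, and again 0 were called by either tool. By edgeR 4 had an unadjusted p under 0.05 in KR, 3 of them higher and 1 lower. The KR sums overlapped those of controls, running from 3173 CPM (KR 1) to 10553 (KR 3) against 4177 and 5227. The KN1 median was -0.09 with 0 called (0 unadjusted). The part of sebocyte content in the Krt79 values was not tested.

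Defb6, the beta-defensin, was at 97.3, 55.4 and 56.3 CPM in LR mice and at 92.3, 101 and 101 in their controls. LR 1 was inside the control range and the other LR mice were the lowest of all 18, for a difference of -0.49 ± 0.26 (edgeR adjusted p = 0.377). KR mice were at 95.3, 68.0, 123 and 118 CPM, against controls at 89.0 and 156, and the difference was -0.28 ± 0.27 (edgeR adjusted p = 0.562). KN1 mice were at 90.3, 144, 106 and 113 CPM, against 117 and 158, and the difference was -0.27 ± 0.27 (edgeR adjusted p = 0.627). The mean over the 3 was -0.35 ± 0.15 and did not pass (edgeR adjusted p = 0.113). It passed without KR control 4 (-0.47, 0.0493) or without LR 1 (-0.45, 0.0343).

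Lrig1, a transmembrane protein that restrains growth factor receptors and marks stem cells above the bulge, is also the gene that drives Cre in LR mice. It was at 407, 295 and 619 CPM in LR mice 1, 2 and 3, and at 338, 373 and 366 CPM in LR controls 2, 3 and 5. The LR mice lay on both sides of a tight control group, with the highest value of all 18 mice in LR 3. The difference was 0.29 ± 0.23 (95% interval -0.19 to 0.78, edgeR adjusted p = 0.578), so neither a fall nor a rise was resolved. Without LR 3 the LR difference was -0.03, and counts over the whole gene do not separate its alleles. KR mice were at 296, 378, 338 and 331 CPM, against 241 and 314 (0.28 ± 0.25, edgeR adjusted p = 0.521), and KN1 mice at 296, 437, 227 and 296, against 274 and 246 (0.27 ± 0.25, 0.589). With single mice left out the KR value ran from 0.09 (without KR control 4) to 0.45 (without KR control 6) and the KN1 value from 0.07 (without KN1 2) to 0.40 (without KN1 3). The mean of the 3 differences, 0.28 ± 0.14, did not pass (edgeR adjusted p = 0.156).

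Lgr6, a receptor for R-spondins that is known from stem cells of the upper follicle and duct, was at 133, 131 and 141 CPM in LR mice against 128, 141 and 202 in controls (-0.22 ± 0.16, edgeR adjusted p = 0.544). KR mice were at 134, 138, 124 and 151 CPM against 183 and 139 (-0.24 ± 0.17, edgeR adjusted p = 0.406). KN1 mice were at 127, 145, 112 and 114 CPM, all above controls at 104 and 96.8 (0.31 ± 0.17, edgeR adjusted p = 0.35). Mutants of the 3 cohorts covered 112 to 151 CPM and controls 96.8 to 202. Of the 7 genes only Lgr6 differed between the control batches, by 0.68 on the log2 scale from the highest to the lowest batch (edgeR adjusted p = 0.0238, a call that 25.8% of all genes shared). That call was lost without KN1 control 1 (0.0901) or KN1 control 7 (0.148). Against all 7 controls pooled the KN1 value was -0.18, but pooling adds controls of the other batches, so batch and genotype cannot be told apart there. With each of the 18 mice left out in turn the KN1 value stayed between 0.23 and 0.36. The difference between KN1 and KR in Lgr6, 0.55 ± 0.24, did not pass (edgeR adjusted p = 0.632).

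Plet1, a membrane-anchored protein of progenitors at the junction of follicle and gland, was at 97.1, 84.8 and 84.2 CPM in LR mice, all above controls at 64.4, 70.05 and 76.4 (0.34 ± 0.26, edgeR adjusted p = 0.575). KR mice were at 51.6, 63.6, 72.0 and 56.8 CPM, against 54.3 and 72.8 (-0.06 ± 0.28, edgeR adjusted p = 0.926). KN1 mice were at 57.9, 95.5, 116 and 128 CPM, against 62.4 and 133 (0.03 ± 0.28, edgeR adjusted p = 0.969), so the 2 KN1 controls spanned nearly the whole range of the mutants. Plet1os, the transcript on the other strand, had log2 fold changes of 0.40, -0.01 and 0.36 in LR, KR and KN1, none called.

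Groups without overlap were common over all genes. In KR 2 of 7 genes (Gata6 above, Prdm1 below) did not overlap, beside 38.4% of all genes, and in KN1 2 of 7 (Gata6 and Lgr6 above), beside 28.1%. In LR 3 of 7 did not overlap (Gata6 and Plet1 above, Krt79 below), beside 19.6%, and Gata6 alone of these was called. Across all 18 mice Gata6 and Krt79 varied most, by 5.19-fold and 5.08-fold from the lowest to the highest mouse, and the other genes by 2.08-fold to 2.85-fold. Differences between mutants were tested for each gene and pair of mutants, 21 in all. No test passed for LR against KR (edgeR 0 of 7, 2 at an unadjusted p under 0.05, DESeq2 0; 0.00605% of all genes called), for KN1 against KR (0 of 7, 1 unadjusted, DESeq2 0; 0% of all genes) or for LR against KN1 (0 of 7, 3 unadjusted, DESeq2 0; 0.00605%).

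Levels were compared between genes only per length, as CPM per kb of exon in the 7 controls. Defb6 (360 ± 90.1 SD, n = 7) and Krt79 (346 ± 94) were highest and did not differ beyond their spread, Defb6 being the higher in 4 of 7 mice. Lrig1 followed at 55.04 ± 9.81, Plet1 at 39.2 ± 13.5 and Lgr6 at 20.7 ± 5.64. The ranges of Lrig1 and Plet1 overlapped, with Lrig1 higher in 6 of 7 mice, and so did those of Plet1 and Lgr6, although Plet1 was higher in 7 of 7. Both transcription regulators were lowest, Gata6 at 5.50 ± 1.06 and Prdm1 at 3.51 ± 0.201, and their ranges did not overlap. Among the 6 neighbouring pairs in this order, 4 had the same order in all 7 mice. Prdm1's counts of 85 to 446 per library were the fewest of the 7 genes.

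**Figure D3:**
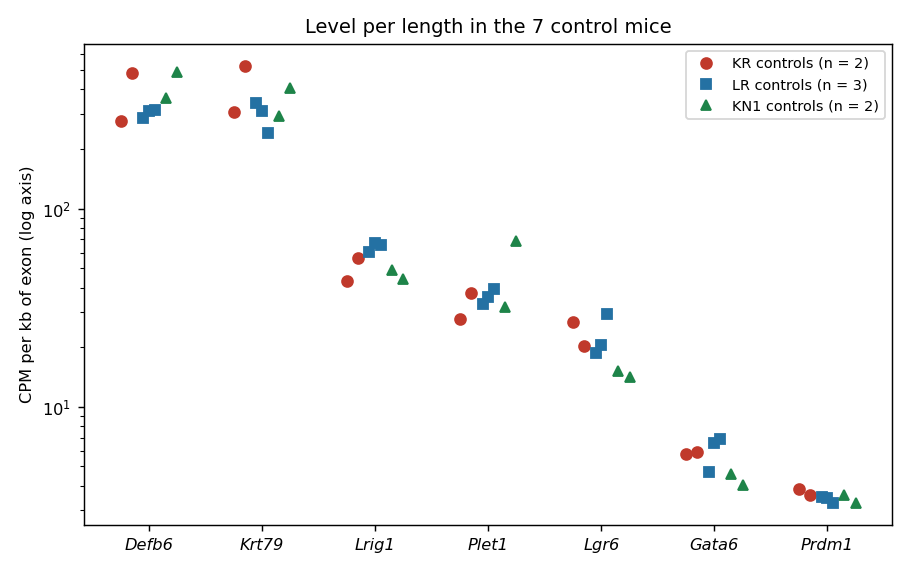
Level per length of each gene in the 7 control mice, in CPM per kb of exon on a log axis, with each control batch in its own colour and marker. Defb6 and Krt79 overlap at the top, and Gata6 and Prdm1 lie lowest with ranges that do not overlap.

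Mice of 1 group also differed from each other, and Lrig1 and Gata6 did so together. After removal of the 6 group means from log2 CPM (prior count 2), Pearson's r between Lrig1 and Gata6 was 0.84 and Spearman's rho 0.72 over 18 mice. Of the 21 pairs of genes this alone passed (permutation p = 7e-05, Benjamini-Hochberg adjusted over the pairs 0.00147; for rho 0.0012 and 0.0252). Removing group means ties the values of a group to each other, so these p-values are approximate. LR 3 and KN1 2 were the highest of their groups in both genes, and LR 2 and KN1 3 the lowest. Without the 2 mice farthest from the median of Lrig1, r was 0.77 (permutation p = 0.00142, adjusted 0.0298). Within the batches of 6 mice, r was 0.89 in the LR batch (exact permutation p = 0.0125, adjusted 0.233), 0.39 in the KR batch (exact p = 0.464, adjusted 0.696) and 0.96 in the KN1 batch (exact p = 0.00833, adjusted 0.0583). None of these passed over the 21 pairs within a batch, and in the KR batch, with 6 mice, the relation was not resolved. Summed genes of the hair matrix and shaft, which differ widely between mice, were at 52.5 CPM in LR 3 and 1125 in LR 2, and at 1122 in KN1 2 and 83.3 in KN1 3, and their part in the relation was not tested. Krt79 and Defb6 had r of 0.58 and rho of 0.58 (permutation p = 0.0119 and 0.0138), which did not pass over the 21 pairs (adjusted 0.0834 and 0.145). Without the 2 farthest mice their r was 0.47 (adjusted 0.33), and within batches it was 0.42 (LR), 0.42 (KR) and 0.98 (KN1, exact permutation p = 0.00139, adjusted 0.0292). Exact means here that every order of the 6 mice of a batch was used, mutants and controls together. Removed group means tie these values as well, and the deviations of the 2 KN1 controls are equal and opposite. The within-batch p-values are therefore approximate too, and the KN1 value is not read as a pass.

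**Figure D4:**
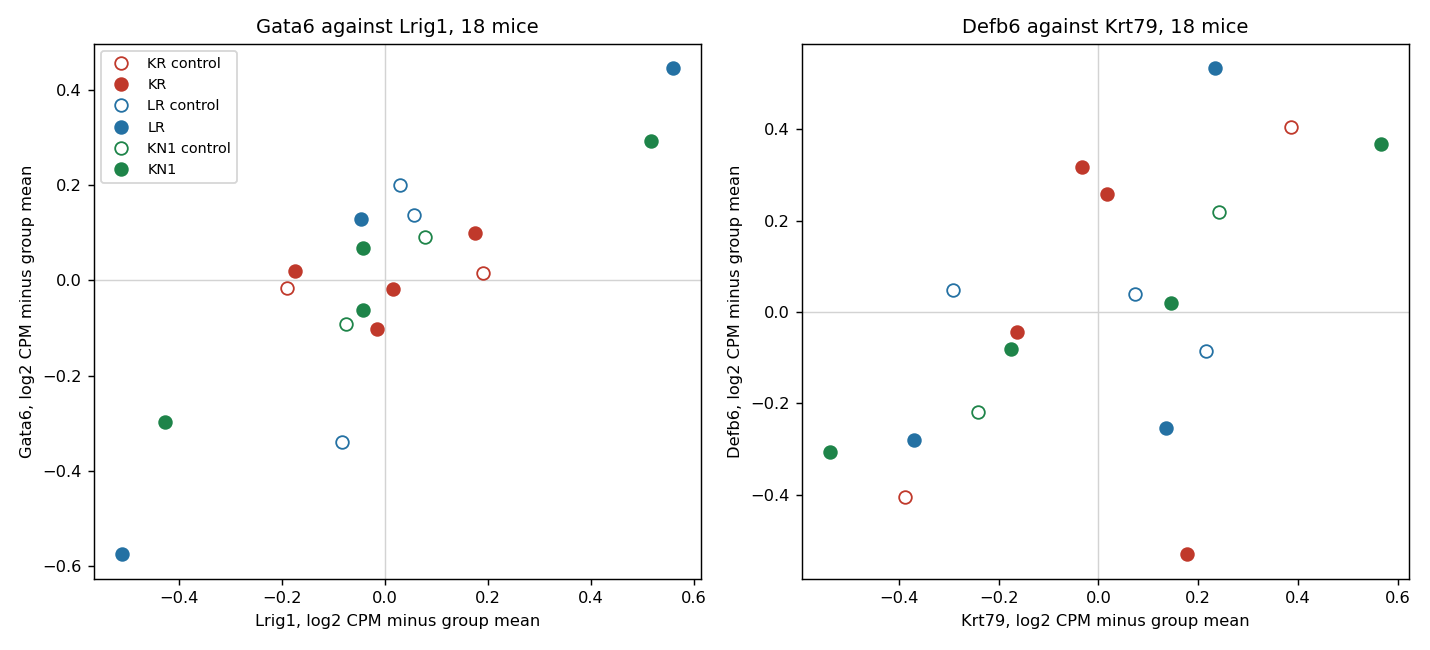
Deviation of each mouse from its group mean in log2 CPM, Gata6 against Lrig1 on the left and Defb6 against Krt79 on the right; open points are controls, filled points mutants, and colours mark the batch. LR and KN1 mice span the diagonal for Lrig1 and Gata6 (r = 0.84), and the points for Krt79 and Defb6 scatter more widely (r = 0.58).

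The genes whose deviations were most like those of each member were ranked by Pearson's r among 12589 genes over the 18 mice. These are the largest of many values and are given as a description. For Gata6 they were Bmp7 (0.89), which encodes a secreted bone morphogenetic protein, Mkl1 (0.87) and Ski (0.85), with Lrig1 next among the members, behind 3 genes. For Lrig1 they were Mta1 (0.92), Lhx2 (0.91), a transcription factor of the bulge, and B4galt2 (0.91). Krt79 was most like Krt17 (0.96), a keratin of the follicle, Klk6 (0.91) and Pinlyp (0.87). Lgr6 was most like the leukocyte genes Cd8b1 (0.87), Itgb2 (0.86) and Laptm5 (0.86). With group means kept, these r were 0.33, 0.29 and 0.03. T cell genes were at 281 and 231 summed CPM in KN1 controls 1 and 7 against 114 to 153 in KN1 mice. Lgr6 went the other way, being higher in KN1 mice than in those controls. What leukocyte RNA adds to the Lgr6 values was not tested. Among the genes most like Plet1 were Plet1os (0.97), whose exons overlap it, and Bzw1 (0.94). Prdm1 was most like Slc9a3 (0.87), Ankrd27 (0.86) and Fbxl4 (0.86). For Defb6 they were Calml3 (0.86), Rps13-ps2 (0.83), a pseudogene whose reads may come from its parent gene, and Sec61g (0.78).

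A list of 16 other genes of the upper follicle, which includes Hedgehog pathway components, was read beside the members, and all 16 were tested. In LR 1 of 16 rose, beside 1.12% of all genes called, and 0 fell, with 13 positive and a median of 0.39. In KR 1 of 16 rose, beside 1.6%, and 0 fell, with 11 positive and a median of 0.12. In KN1 edgeR called 0 of 16, beside 1.97%, with 1 at an unadjusted p under 0.05, DESeq2 called Gli1, 13 were positive and the median was 0.31. On the mean of the 3 comparisons 3 rose and 1 fell, which is near the 21.7% of all genes called, with a median of 0.26 beside 0.03 over all genes.

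Gli1, a transcription factor and target of Hedgehog signalling, was at 25.2, 28.7 and 76.9 CPM in LR mice and 16.7, 16.9 and 9.66 in controls. Every LR mouse was above every control, and the difference of 1.60 ± 0.45 did not pass (edgeR adjusted p = 0.0965). In KN1 it was 1.37 ± 0.49 (0.156) and in KR 0.40 ± 0.46 (0.628). DESeq2 called Gli1 in LR. On the mean over the mutants Gli1 rose by 1.12 ± 0.27 (edgeR adjusted p = 0.0097). LR 3, highest in Gata6 and Lrig1, was also the highest LR mouse in Gli1. The Hedgehog components of that list did not all move with Gli1. Group means of Ptch1 were 58.7 (KR), 62.8 (LR) and 42.7 CPM (KN1), against 80.8, 49.8 and 34.2 in controls. DESeq2 called neither Ptch1 nor Hhip in any mutant or on the mean over the mutants. Krt80, a keratin, fell by 0.53 ± 0.13 on that mean (edgeR adjusted p = 0.00933), with every mutant below every control of its batch in KR, LR and KN1. In KR the margin was narrow, with 1468 CPM in the highest KR mouse and 1469 in the lower control. Groups did not overlap in 38.4% (KR), 19.6% (LR) and 28.1% (KN1) of all genes, and the share separated in all 3 cohorts was not counted. Bulge genes, which lie below the upper follicle, gave 0 calls of 16 in each mutant by edgeR and by DESeq2. Their medians were 0.24, 0.29 and 0.30 in KR, LR and KN1. By edgeR 1, 3 and 4 of them had an unadjusted p under 0.05 in KR, LR and KN1. The 1 in KR was lower, the 3 in LR were higher, and in KN1 3 were higher and 1 lower.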

How the data were processed

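The authors deposited a table of raw counts of reads per gene for 18 mice, with no normalization, and per the submitters' processing notes STAR, HTSeq, DESeq2 and mm10 were used, with no versions. Column names gave the mouse of every column. Group means were compared with edgeR 4.0.16 (R 4.3.3), with TMM factors, filterByExpr, robust quasi-likelihood F tests on 6 group means over all 18 mice, two-sided, and Benjamini-Hochberg adjustment at 0.05. The common biological coefficient of variation was 0.225, and standard errors were taken from the F statistic. On counts simulated for the 16517 tested genes, the fit recovered 42% (KR), 47% (LR) and 41% (KN1) of genes changed by 2-fold, and 88%, 94% and 89% of those changed by 4-fold. A difference of 2-fold or less in 1 mutant could therefore be missed. No 2 libraries of a group agreed within sampling noise (chi-square per degree of freedom of at least 5.98). Each sample is a mouse, so p-values measure the spread between mice. Correlations used 100000 permutations over the 18 mice and every order of the 6 mice within batches (Python 3.11.15, scipy 1.17.1). The 7 genes and all lists were chosen with earlier results of these data known. The rule for named genes took the 7 genes, the deleted genes and Krt14, up to 3 genes with the smallest adjusted p of each list described, and the 3 tested genes with ordinary symbols most like each of the 7. Some genes that this rule takes are not reported here, and counts over lists include them. Of the table's symbols 15418 matched GENCODE M21. Alternatives were DESeq2 1.42.0, RLE factors, other filters, cohorts fitted alone, pooled controls, a replicate block, second-named libraries as a covariate or left out, and each mouse left out. A hair gene covariate and a mean without LR were chosen after seeing the data.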

Additional observations from a re-analysis of the deposited data

How the results depend on the processing

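Of the results led with, Gata6 in LR was called in 27 of 28 alternatives (1.17 to 1.65), and its mean over the mutants in 25 of 26 (0.53 to 0.92). Counts of called genes moved far more than these values: in KR from 264 to 1076 by DESeq2, 672 with the cohort alone, 809 with pooled controls, 12 with the second-named covariate and 32 without second-named controls. In LR they moved from 185 to 536, 66 and 1052 by DESeq2, the cohort alone and pooled controls, and in KN1 from 325 to 797, 98, 1867, 19 and 41 in the order given for KR, and to 207 with the hair covariate. The mean moved from 3576 to 53 with the second-named covariate, 1125 without those controls and 2073 without LR, and the control batches from 4264 to 1364 without second-named controls. Differences between mutants gave 4 (LR against KR), 39 (KN1 against KR) and 67 genes (LR against KN1) by DESeq2, 8 and 21 for LR against KR and KN1 without second-named controls, and 3 for LR against KN1 with no filter. With each mouse left out in turn, counts ran from 5 (without KR control 6) to 1353 (without LR control 5) in KR, 60 (without LR 3) to 246 in LR, 2 (without KN1 control 7) to 640 (without LR control 5) in KN1, 1 to 8, 0 to 3 and 1 to 13 for the differences LR against KR, KN1 against KR and LR against KN1, 2163 (without KN1 control 7) to 3997 for the mean and 1883 (without KN1 control 7) to 5158 for the control batches. Correlated pairs numbered 2 without removal of group means and 0 within batches 1 and 2, and level order held for 5 pairs without division by length. The cause of these moves was not tested.

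LR mice and controls share the numbers 2 and 3, whose deviations correlated at 0.066 and -0.084 across genes. These values cannot tell whether mice of the same number share a litter or only a number. With a replicate block LR gave 116 genes, and Lgr6 turned to 0.013. KR and KN1 share 1 number each with their controls, so a block was not fitted there.

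None of the results that changed sign was called, and the cause was not tested. With the second-named covariate Plet1 in KR was 0.375, Defb6 0.047 in KR and 0.039 in KN1, the mean of Lgr6 0.136, LR minus KR -0.022 in Lrig1 and -0.071 in Lgr6, KN1 minus KR -0.008 in Defb6 and LR minus KN1 -0.015 in Lrig1. Without second-named controls, Plet1 and Defb6 in KR were 0.14 and 0.16, Lgr6 in LR 0.003, the mean of Krt79 0.13, LR minus KR -0.15 in Lrig1, KN1 minus KR -0.20 in Defb6 and LR minus KN1 -0.27 in Plet1. Lgr6 in KN1 was -0.18 with pooled controls, and Plet1 there -0.015 with no filter or the hair covariate. KN1 minus KR in Defb6 was -0.006 with RLE factors, -0.004 by DESeq2 and -0.031 with no filter. Without LR the means of Lgr6, Plet1 and Krt79 were 0.037, -0.014 and 0.291. With single mice left out, sign changed within these ranges: Plet1 -0.26 to 0.14, Defb6 -0.63 to 0.16 and Krt79 -0.24 to 0.51 in KR, Lgr6 -0.35 to 0.006 and Lrig1 -0.032 to 0.52 in LR, Plet1 -0.43 to 0.67 in KN1, and the means of Krt79 (-0.16 to 0.083), Lgr6 (-0.125 to 0.027) and Plet1 (-0.051 to 0.31). The same held for LR minus KR in Defb6 (-0.65 to 0.14), Lgr6 (-0.19 to 0.24), Lrig1 (-0.31 to 0.24) and Prdm1 (-0.079 to 0.45), for LR minus KN1 in Lrig1 (-0.31 to 0.24) and Plet1 (-0.33 to 0.76), and for KN1 minus KR in Defb6 (-0.45 to 0.35), Gata6 (-0.19 to 0.011), Krt79 (-0.047 to 0.72), Lrig1 (-0.205 to 0.173) and Plet1 (-0.37 to 0.75). Counting error was largest for Prdm1, with as few as 85 counts in a library.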
